A study of Mus musculus with 4 samples.

Results

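The 10 genes described here encode the vascular endothelial growth factor (VEGF) family of the mouse: the ligands Vegfa, Vegfb, Vegfc, Vegfd and Pgf, the receptor tyrosine kinases Kdr, Flt1 and Flt4, and the neuropilin co-receptors Nrp1 and Nrp2. The family was chosen by an earlier reading of these same library-scaled counts in untreated and treated explants. Its genes were taken by symbol from tables of 49997 genes, in which all 10 were present, and all 10 were among the 19837 genes that passed the filter on low counts. The 4 libraries were made from poly(A) RNA of C57BL/6J mouse embryos, from cultured explants of the AGM (the aorta, gonad and mesonephros of the embryo), where the first haematopoietic stem cells bud from the endothelium of the aorta. Explants were kept for 48 hours on membrane filters at the interface of gas and medium, with hydrocortisone in all of them, 2 libraries untreated and 2 exposed throughout to CCCP at 5 µM, an uncoupler that carries protons across the mitochondrial inner membrane. The series design gives E10.5 as the stage, while the growth protocol also names E11.5. No vehicle is named for the untreated explants, and no label says how many embryos went into a library or whether libraries of a group came from separate embryos, so the spread between them may be technical.

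VEGF-A is a secreted dimer that binds KDR (VEGFR2), the main signalling receptor of the endothelium, and FLT1 (VEGFR1), which binds it more tightly but signals weakly and acts in the embryo largely as a decoy. VEGF-B and placental growth factor (PGF) bind FLT1 and not KDR, while VEGF-C and VEGF-D act through FLT4 (VEGFR3), and processed VEGF-C also binds KDR. Neuropilins hold VEGF for its receptors and also bind class 3 semaphorins. The Kdr-expressing lineage gives rise to endothelium and blood in the embryo, and transcription of Vegfa is a textbook response to low oxygen through hypoxia-inducible factors. The comparison asks how transcripts of this system differ between explants with and without the uncoupler.

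The genes lie on 8 chromosomes (mm10 coordinates of the files). Promoters of the 4 members whose levels are followed most closely below are shown first, because these members did not move as 1 block: Vegfb was higher under CCCP, while Vegfa, Flt1 and Kdr were lower. Each is the RefSeq window (GRCm38.p6) from 250 bases before to 50 bases after an annotated start, given 5′ to 3′ on the strand of the gene, with capitals marking the hypoxia-response core ACGTG or GCGTG, the GC box GGGCGG and the TATA box TATAAA on either strand. The windows are chr17:46032328-46032627 on the minus strand for Vegfa, chr19:6987602-6987901 on the minus strand for Vegfb, chr5:147725962-147726261 on the minus strand for Flt1 and chr5:75978406-75978705 on the minus strand for Kdr.
Vegfa: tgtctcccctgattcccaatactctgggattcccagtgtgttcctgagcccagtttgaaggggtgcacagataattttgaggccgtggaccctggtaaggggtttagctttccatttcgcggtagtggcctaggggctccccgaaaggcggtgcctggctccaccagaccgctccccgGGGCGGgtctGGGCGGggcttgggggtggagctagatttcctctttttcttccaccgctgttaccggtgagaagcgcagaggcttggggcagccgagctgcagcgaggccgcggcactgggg
Vegfb: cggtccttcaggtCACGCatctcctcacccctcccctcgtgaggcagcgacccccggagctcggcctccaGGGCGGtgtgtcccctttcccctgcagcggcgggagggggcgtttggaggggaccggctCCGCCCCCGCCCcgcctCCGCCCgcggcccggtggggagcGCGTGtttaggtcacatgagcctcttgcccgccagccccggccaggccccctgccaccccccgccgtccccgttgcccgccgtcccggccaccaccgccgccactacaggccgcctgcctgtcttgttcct
Flt1: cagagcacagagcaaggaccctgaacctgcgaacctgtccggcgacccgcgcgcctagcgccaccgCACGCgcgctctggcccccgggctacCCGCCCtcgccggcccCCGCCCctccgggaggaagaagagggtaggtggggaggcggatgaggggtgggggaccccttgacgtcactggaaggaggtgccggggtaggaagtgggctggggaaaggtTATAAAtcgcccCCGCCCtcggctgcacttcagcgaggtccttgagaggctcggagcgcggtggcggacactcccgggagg
Kdr: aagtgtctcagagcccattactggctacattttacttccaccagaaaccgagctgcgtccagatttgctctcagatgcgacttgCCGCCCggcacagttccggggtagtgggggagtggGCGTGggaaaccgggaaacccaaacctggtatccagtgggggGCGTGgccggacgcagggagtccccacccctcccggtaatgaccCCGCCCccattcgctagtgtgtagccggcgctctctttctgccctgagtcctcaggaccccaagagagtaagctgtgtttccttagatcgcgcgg

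The Vegfa window held 2 GC boxes and no hypoxia-response core, the Vegfb window 4 GC boxes and 2 cores, the Flt1 window 3 GC boxes, 1 core and a TATA box 31 bases before the start, and the Kdr window 2 GC boxes and 2 cores. Of the GC boxes of Vegfb, a pair lies end to end. The RefSeq table has 12 windows for the 10 genes, since Vegfa and Pgf each have a second start. A core was present in 7 of the 12, including the second window of Vegfa, against 43.8% of all 32851 promoter windows of the same length. That second window (chr17:46025114-46025413) lies within the span of the gene, so its core is not upstream of the first start. The windows of Kdr, Flt1 and Nrp1 and both windows of Pgf also lie within the spans of their genes. Cores in them lie before the annotated start used, but not upstream of the 5′ end of the gene. A GC box was present in 10 of the 12, against 35.7% of all windows, and the Vegfd window and the second window of Pgf had none. These are matches of letters that describe the windows, and they are not evidence of binding. Among the windows printed above, cores were found in Vegfb, Flt1 and Kdr. Sequence outside the windows was not searched, and whether a core bears on the level of a gene was not tested.

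The reads assigned to genes came to 48216849 in untreated replicate 1, 37360968 in untreated replicate 2, 48827826 in CCCP replicate 1 and 37579087 in CCCP replicate 2. The count column of untreated replicate 1 carries a header that differs by a letter from that label, and its sample was taken from the GEO record of the file. A member was covered by 222 to 12794 reads per library. Levels are given as CPM (read counts scaled to library size, with TMM factors), a mean is followed by its SD over n = 2 libraries, and log2 fold changes are CCCP over untreated with the standard error (SE) of edgeR's fit to all genes tested. No gene of the 19837, members included, differed between the groups at an adjusted p-value under 0.05 in that fit (quasi-likelihood test of edgeR, adjusted after Benjamini and Hochberg, 0% called, smallest adjusted p-value 0.122). The unadjusted p was under 0.05 for 2899 genes, 14.6%. DESeq2 called 594 genes, 3.32% of those it tested, and edgeR without the filter on low counts 3.43%. Both of these fits called Vegfa, and the unfiltered one also Flt1, in the contrast by which the family was chosen. Because the family was proposed with this contrast in view, the values of its members are given as a description and carry no p-values.

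The labels give embryonic HSCs as the cell type and the series design c-kit+ HSCs, whereas the extraction protocol speaks of explants, and the libraries held transcripts of many tissues. The 10 mesenchymal and mural markers that passed the filter summed to between 3057 and 5436 CPM and the 24 endothelial markers to between 719 and 946 CPM. Ptprc, the pan-leukocyte antigen CD45, was named after its values were seen. It stood at 6.85 and 6.82 CPM untreated and at 3.65 and 3.39 CPM under CCCP, without overlap (edgeR adjusted p 0.216). Of the 8 macrophage markers, Ptprc among them, 2 were higher without overlap and Ptprc alone was lower. Their median log2 fold change was 0.15. The shares of all genes tested without overlap were 24.0% higher and 24.8% lower. In such bulk samples fewer cells of a type and less RNA per cell cannot be told apart. The hepatic markers differed most: all 11 separated the groups with the CCCP libraries lower, with sums of 1006 to 1773 CPM untreated and 53.6 to 109.6 CPM under CCCP.

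Vegfa, on chromosome 17 from 46016993 to 46032377, was the ligand with the most counted reads, on a scale that takes no account of length, and the member with the widest gap between groups. It stood at 255.6 and 244.6 CPM untreated and at 149.02 and 131.4 CPM under CCCP. Both CCCP libraries lay well below both untreated libraries, and the gap of 0.71 on the log2 scale was wider than the difference within either group. The mean went from 250.1 ± 7.79 to 140.2 ± 12.5 CPM, 56.1% of the untreated level, with a log2 fold change of -0.83 (SE 0.123). Fits that left out 1 library gave -0.93 to -0.75. The sum of the hepatic markers was 1773 CPM in untreated replicate 1 and 1006 CPM in untreated replicate 2. Hnf4a, a hepatic transcription factor, was at 8.97 and 8.32 CPM untreated and at 2.45 and 1.82 CPM under CCCP, and Alb, the gene of serum albumin, at 376.5 and 151.1 CPM untreated and at 0.165 and 11.1 CPM under CCCP. The part of the hepatic transcripts in the level of Vegfa was not tested. The annotated RefSeq transcripts, 10 in number, which differ in the exons that set heparin binding, were summed into this count, so isoforms were not told apart.

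Vegfb, on chromosome 19 from 6982472 to 6987651, was the sole member higher under CCCP in both libraries. Its levels were 36.2 and 37.6 CPM untreated and 51.8 and 51.5 CPM under CCCP. The 2 libraries of each group lay close together, and the groups were separated by 0.45 on the log2 scale. The mean went from 36.9 ± 0.994 to 51.6 ± 0.214 CPM, 139.9% of the untreated level, with a log2 fold change of 0.48 (SE 0.114). Vegfb has the shortest exon sequence of the family, 1282 bases, against a median of 3467 bases over the genes tested, and fold changes over all genes went down with exon length (Spearman's rho -0.35 across 19837 genes, which are not independent replicates). With the trend on length removed from each library the log2 fold change was 0.31, and with the trend on GC content removed it was also 0.31, both over 1.5 times smaller.

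The other ligands were counted at much lower levels and did not separate the groups. Pgf, whose product binds FLT1, stood at 11.8 and 17.8 CPM untreated and at 13.9 and 12.8 CPM under CCCP. The untreated libraries enclosed both CCCP libraries, and the log2 fold change was -0.15 (SE 0.241). Vegfc, the main lymphatic growth factor, stood at 9.67 and 12.6 CPM untreated and at 11.3 and 10.6 CPM under CCCP, again with the CCCP values inside the untreated range, and a log2 fold change of -0.02 (SE 0.213). The exons of Vegfc share 394 bases, 20.9% of their length, with the predicted gene Gm33153 on the other strand. Reads in that stretch were not assigned to a gene, so the level of Vegfc is uncertain. Vegfd, also a ligand of FLT4, stood at 7.19 and 5.94 CPM untreated and at 5.32 and 7.50 CPM under CCCP. There the CCCP libraries enclosed the untreated ones, with a log2 fold change of -0.04 (SE 0.270). For all 3 the sign changed with the library left out, from -0.41 to 0.20 for Pgf, -0.19 to 0.20 for Vegfc and -0.31 to 0.19 for Vegfd. No direction was therefore read for them. These ranges show the weight of single libraries and are not a limit of detection, which was not estimated.

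**Figure D1:**
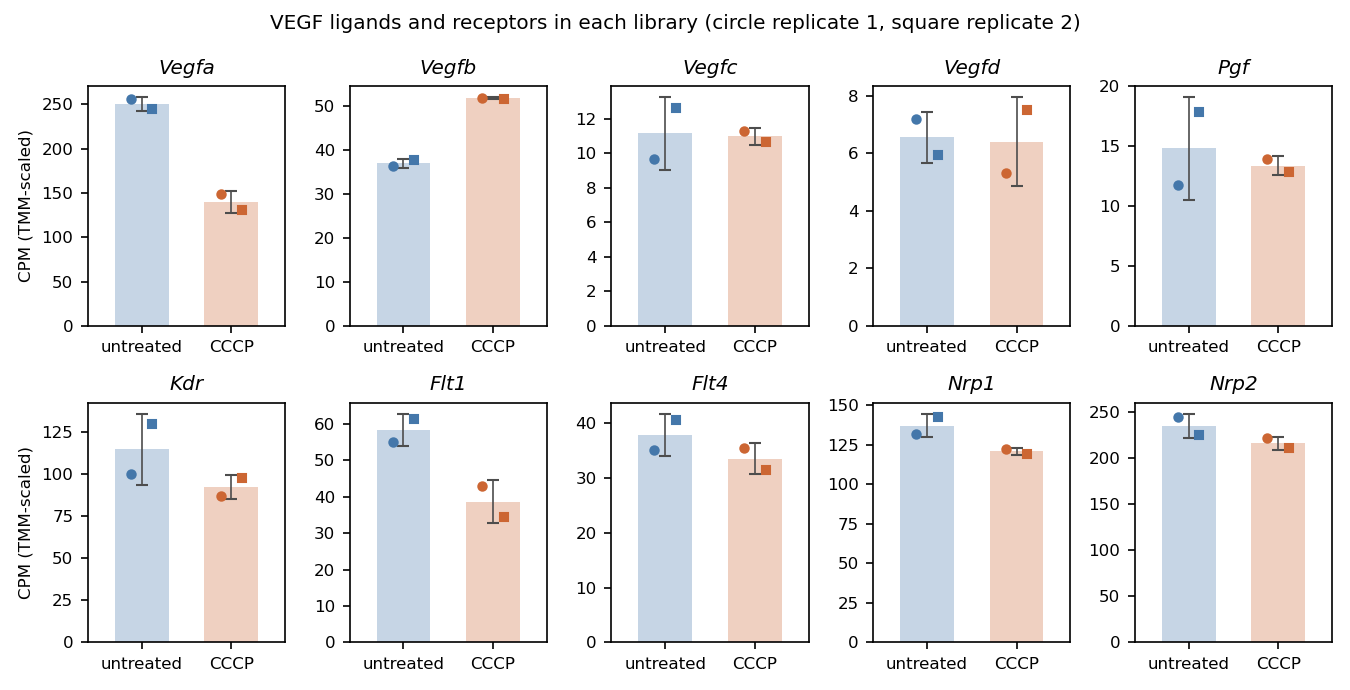
Level of each member in CPM (TMM-scaled, vertical axes from 0 and scaled per gene) in untreated (blue) and CCCP (orange) libraries. Bars are means of 2 libraries with SD, points are libraries (circle replicate 1, square replicate 2). Vegfa (255.6 and 244.6 against 149.02 and 131.4 CPM) and Flt1 are lower and Vegfb is higher under CCCP, while Vegfc, Vegfd, Pgf and Flt4 overlap. The groups of Flt1 overlap once the trend on exon length is removed (not drawn).

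Per base of exon the ligands can be set against each other. With CPM divided by the merged exon length in kilobases, Vegfa stood at 61.2 and 58.6 CPM per kb untreated and at 35.7 and 31.5 CPM per kb under CCCP, and Vegfb at 28.3 and 29.3 against 40.4 and 40.2 CPM per kb. Vegfa made up 59.1% and 55.4% of the summed level of the 5 ligands untreated and 39.2% and 36.2% under CCCP. The share of Vegfb was 27.3% and 27.8% untreated and 44.3% and 46.2% under CCCP. Pgf, Vegfc and Vegfd each held between 2.76% and 7.74% in every library. The ratio of Vegfa to Vegfb per length thus went from 2.17 and 1.997 to 0.884 and 0.783, and no CCCP library came near an untreated one. Which of the 2 is the more abundant under CCCP depends on the length taken: with the longest GENCODE transcript of each gene, 3451 bases for Vegfa in place of 4174, the ratio was 2.62 and 2.41 untreated and 1.07 and 0.947 under CCCP. The summed level of the 5 ligands was 104.7 ± 1.54 CPM per kb untreated and 89.0 ± 3.02 CPM per kb under CCCP.

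Of the receptors, Flt1 (chromosome 5, 147561604 to 147726438) differed most. It stood at 55.1 and 61.4 CPM untreated and at 42.9 and 34.4 CPM under CCCP. Both CCCP libraries lay below both untreated libraries, by at least 0.36 on the log2 scale. The mean of 58.3 ± 4.46 CPM went to 38.7 ± 5.97 CPM, 66.3% of the untreated level, with a log2 fold change of -0.59 (SE 0.15) that lay between -0.76 and -0.44 when 1 library was left out. Its merged exons, 13758 bases, are the longest of the family, and 4.42% of the genes tested were longer. With the length trend removed the log2 fold change of Flt1 was -0.28 and its groups overlapped, whereas with the GC trend removed it was -0.60. The count does not tell the membrane receptor from the soluble form that ends within an intron of the gene.

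Kdr (chromosome 5, 75932827 to 75979072) stood at 99.9 and 129.6 CPM untreated and at 87.2 and 97.4 CPM under CCCP. The groups did not overlap, but the gap between the lowest untreated and the highest CCCP library was 0.04 on the log2 scale, far less than the difference between the untreated libraries. The log2 fold change was -0.31 (SE 0.158), but -0.10 once untreated replicate 2 was left out and -0.48 once replicate 1 was. With the length trend removed it was -0.13 and the groups overlapped. Flt4 (chromosome 11, 49609679 to 49652739), the receptor of VEGF-C that marks lymphatic and sprouting endothelium, stood at 35.1 and 40.5 CPM untreated and at 35.4 and 31.4 CPM under CCCP. Its groups overlapped, with a log2 fold change of -0.18 (SE 0.142) that was -0.05 without untreated replicate 2. With the GC trend removed it was -0.32 and the groups did not overlap, with the CCCP libraries lower.

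Receptor transcripts were next read against the endothelium that carries them. The endothelial marker Cdh5, VE-cadherin, stood at 138.3 and 176.6 CPM untreated and at 143.6 and 134.3 CPM under CCCP, and Pecam1 at 98.7 and 128.9 against 101.9 and 97.3 CPM. Both were higher in untreated replicate 2 than in replicate 1, as Kdr was, and their groups overlapped. Tek, the angiopoietin receptor, stood at 8.29 and 13.0 CPM untreated and at 6.22 and 6.37 CPM under CCCP, without overlap, a log2 fold change of -0.75 that was -0.38 without untreated replicate 2. Of the 24 endothelial markers that passed the filter, 1 was higher and 3 were lower without overlap. The shares over all genes tested were larger, 24.0% higher and 24.8% lower. The median log2 fold change of the markers was -0.05.

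Per 100 CPM of these markers, Kdr came to 13.9 and 13.7 CPM untreated and 10.9 and 12.3 CPM under CCCP. The untreated libraries, which differed in Kdr itself, were nearly equal on this scale, and both CCCP libraries lay below them. Flt1 came to 7.66 and 6.50 CPM untreated and 5.36 and 4.34 CPM under CCCP per 100 CPM of markers, again without overlap. Flt4, at 4.88 and 4.28 against 4.43 and 3.96 CPM, overlapped. The ratios take no account of the trend on exon length. With that trend removed the log2 fold change was -0.13 for Kdr and -0.28 for Flt1. On the same scale it was -0.16 for Cdh5, -0.23 for Pecam1 and -0.69 for Tek. Whether these ratios reflect other kinds of endothelium in the explant was not tested. Of the lymphatic markers 6 of 7 passed the filter and Ccl21a was listed at 0 in all libraries. The 6 summed to 285.4 to 424.5 CPM untreated and 265.7 to 304.1 CPM under CCCP, and 3 of them, Prox1, Lyve1 and Mmrn1, were lower in both CCCP libraries. The log2 fold changes of these 3, named after their values were seen, were -0.71, -1.29 and -1.07, with edgeR adjusted p-values of 0.23, 0.23 and 0.171 (n = 2 a group). The other 3, Pdpn, Stab1 and Reln, overlapped between groups, with log2 fold changes of 0.15, 0.02 and -0.55. Prox1 is also expressed by hepatoblasts and Lyve1 by liver sinusoids, and their part in the level of Flt4 was not tested.

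Both neuropilins were slightly lower under CCCP. Nrp1 (chromosome 8, 128358591 to 128505476), which serves VEGF-A in arterial endothelium, stood at 131.9 and 142.4 CPM untreated and at 122.6 and 119.4 CPM under CCCP, with a log2 fold change of -0.18 (SE 0.112). Nrp2 (chromosome 1, 62703317 to 62818692), the co-receptor of veins, lymphatics and migrating neural crest, stood at 244.6 and 226.0 CPM untreated and at 221.7 and 211.5 CPM under CCCP, with a log2 fold change of -0.12 (SE 0.118). In neither gene did the groups overlap, yet the gap was 0.11 on the log2 scale for Nrp1 and 0.03 for Nrp2. Both signs turned when the length trend was removed, to 0.06 and 0.09. With the GC trend removed Nrp1 was at -0.04 and its groups overlapped, while Nrp2 was at -0.16 without overlap. Both genes have long exons of 9677 and 8122 bases. Predicted genes on the other strand overlap both, sharing 183 exon bases with Nrp1 and 0 with Nrp2.

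In all, 1 member was higher and 5 were lower in both CCCP libraries than in both untreated libraries, and 4 overlapped. Over all genes tested, 24.0% were higher and 24.8% lower without overlap, 48.8% in either direction. The median log2 fold change of the 10 members was -0.16, against -0.01 over all genes tested. With the length trend removed 2 members (Vegfb and Nrp2) were higher and 1 (Vegfa) was lower without overlap, against 24.5% and 21.0% of all genes on that scale. Vegfa and Vegfb kept both the direction and the separation there, whereas Kdr, Flt1 and Nrp1 overlapped and Nrp2 turned. Without untreated replicate 1 there were 8 lower members and 1 higher one, against 36.3% and 37.6% of all genes. Without untreated replicate 2 there were 5 lower and 3 higher, against 39.6% and 41.3%.

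**Figure D2:**
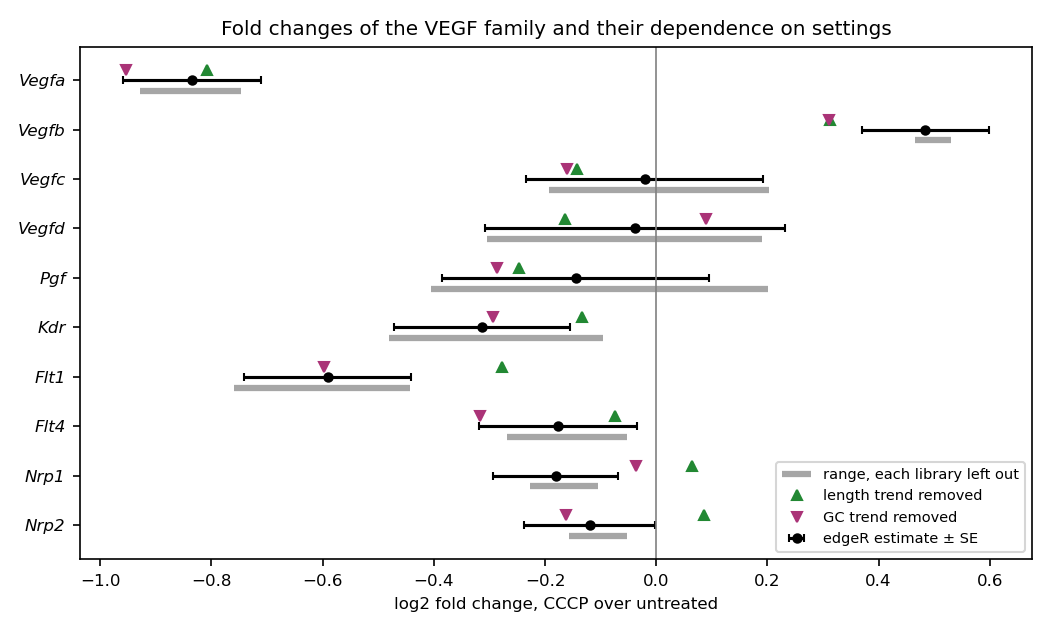
Log2 fold change of CCCP over untreated for each member (horizontal axis), as estimated by edgeR with its SE (black), with the trend on exon length removed (green), with the trend on GC content removed (purple), and the range over fits that leave out each library in turn (grey). Vegfa stays between -0.95 and -0.75 over the settings drawn, Flt1 moves from -0.59 to -0.28 without the length trend, and Nrp1 and Nrp2 cross 0.

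Per length, the untreated order ran from Vegfa through Nrp2, Vegfb, Kdr, Nrp1, Pgf, Flt4, Vegfc and Flt1 to Vegfd. Nrp2 and Vegfb (30.1 and 27.8 against 28.3 and 29.3 CPM per kb) overlapped in their ranges, as did Kdr and Nrp1, Pgf and Flt4, and Flt4 and Vegfc. On this merged exon length the least abundant members were Flt1, at 4.01 and 4.46 CPM per kb, and Vegfd, at 3.54 and 2.92 CPM per kb. Under CCCP the order ran from Vegfb through Vegfa, Nrp2, Nrp1, Kdr, Pgf, Vegfc, Flt4 and Vegfd to Flt1, with overlapping ranges for Nrp1 and Kdr, Pgf and Vegfc, Vegfc and Flt4, and Vegfd and Flt1. Vegfa lay above 96.2% and 95.3% of the genes tested in the untreated libraries on this scale. Kdr exceeded Flt1 by 3.24 and 3.77 times per length untreated and by 3.64 and 5.06 times under CCCP, and Nrp2 exceeded Nrp1 by 1.89 to 2.21 times over the 4 libraries. These orders depend on the length assigned to a gene. With the longest GENCODE transcript, 3645 bases for Nrp1 in place of 9677, Nrp1 stood at 36.2 and 39.1 CPM per kb untreated. Nrp2 stood at 36.4 and 33.6, so that their ranges overlapped, and Kdr exceeded Flt1 by 2.11 to 3.29 times. On that length Flt1 stood at 7.99 and 8.91 CPM per kb untreated. Flt4 (5.61 and 6.48), Vegfc (3.95 and 5.15) and Vegfd (3.51 and 2.90) stood lower.

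**Figure D3:**
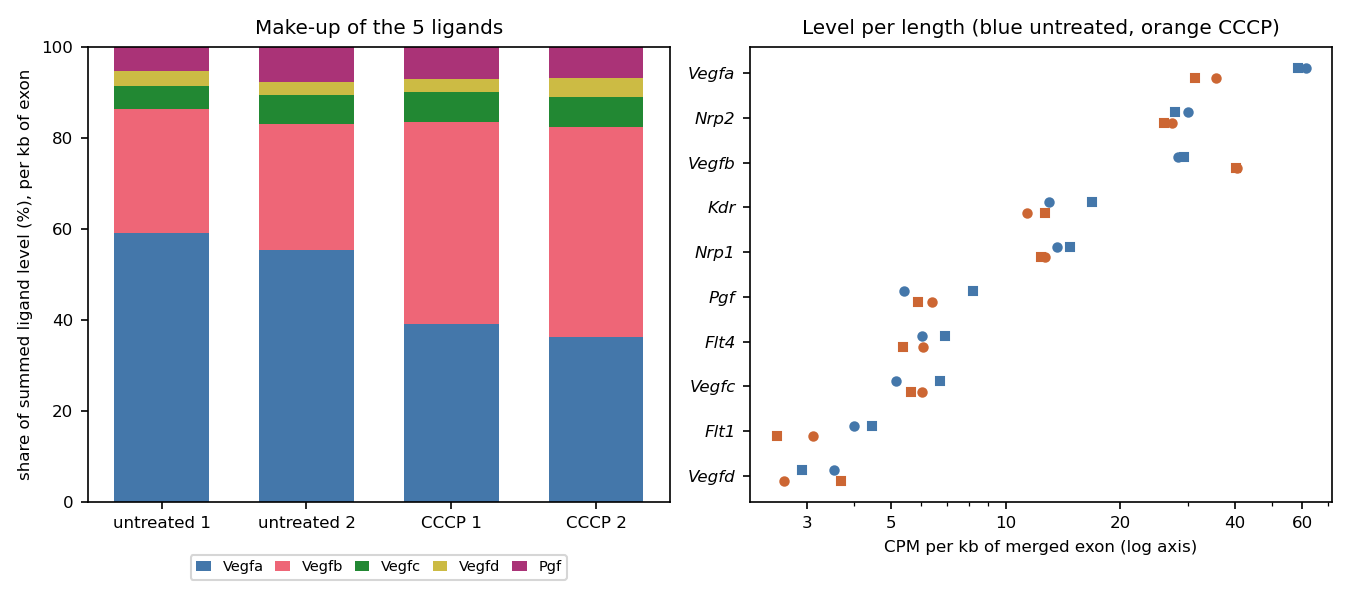
Left, share of each ligand in the summed level of the 5 ligands per kilobase of merged exon, in percent, for each library. Right, level per length of all 10 members in CPM per kb on a log axis, blue untreated, orange CCCP, circle replicate 1, square replicate 2. The share of Vegfa goes from 59.1% and 55.4% to 39.2% and 36.2%, and Vegfb is the highest member in both CCCP libraries on this length.

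The rest of the pathway was read from lists of 93 genes, of which 92 passed the filter. None was called in either direction by edgeR over all genes tested (0 of 92, adjusted p-values from 0.15 to 0.995), 16 had an unadjusted p under 0.05 (8 higher and 8 lower), and DESeq2 called 3 of them, Ptprb, Sema3d and Yes1. Without overlap between groups 25 were higher and 23 lower, shares close to the 24.0% and 24.8% of all genes tested. The median log2 fold change was 0.01, against -0.01 over all genes tested.

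Among 34 genes that act at or below the receptors, 11 were higher and 5 lower without overlap, with a median log2 fold change of 0.01 that was -0.04 without TMM scaling. Ptprb, the endothelial phosphatase VE-PTP that restrains KDR and Tie2, stood at 26.3 and 25.3 CPM untreated and at 16.5 and 15.9 CPM under CCCP. Its log2 fold change of -0.67 (SE 0.148) had the smallest p among lower genes of the list (edgeR adjusted p 0.195, n = 2 a group), and it was -0.36 with the length trend removed. Mapkapk2, a kinase below p38, stood at 118.1 and 134.7 CPM untreated and at 165.8 and 177.6 CPM under CCCP, a log2 fold change of 0.44 (edgeR adjusted p 0.242). Plcg1, the phospholipase recruited by KDR, and Nos3, endothelial nitric oxide synthase, both named after their values were seen, had 0.02 and -0.24 on the log2 scale, and their groups overlapped.

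Of 11 genes for processing the ligands or freeing them from matrix, 2 were higher and 4 lower without overlap, with a median of -0.08. The sign of this median turned with the length trend removed (0.03), without untreated replicate 1 (0.14) and without CCCP replicate 2 (0.01). Adamts1, a protease that binds VEGF-A, stood at 95.1 and 85.8 CPM untreated and at 68.8 and 65.1 CPM under CCCP, a log2 fold change of -0.43 (edgeR adjusted p 0.235). Ctsd, the lysosomal protease cathepsin D, stood at 423.3 and 340.5 CPM untreated and at 548.8 and 518.6 CPM under CCCP, a log2 fold change of 0.48 (edgeR adjusted p 0.272). Ccbe1 and Adamts3, which together activate VEGF-C and were named after their values were seen, had log2 fold changes of -0.33 and -0.26 (edgeR adjusted p 0.469 and 0.511). Both were lower in both CCCP libraries.

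Of the 12 semaphorins and plexins that share the neuropilins, 3 were higher and 5 lower without overlap. Their median of -0.27 was -0.06 with the length trend removed, -0.10 with the GC trend removed, -0.10 without untreated replicate 1 and -0.15 without CCCP replicate 2. Sema3d, a class 3 semaphorin that guides endothelial and neural crest cells, stood at 25.5 and 25.3 CPM untreated and at 12.3 and 14.3 CPM under CCCP. Its log2 fold change of -0.94 (SE 0.164) had the smallest adjusted p-value of all pathway genes, 0.15 in edgeR, and was -0.59 with the GC trend removed. Sema3f, a repulsive ligand of Nrp2, was higher, at 79.2 and 75.9 CPM untreated and 88.9 and 97.0 CPM under CCCP, a log2 fold change of 0.26 (edgeR adjusted p 0.36) that was 0.10 with the GC trend removed. Plxnd1, the endothelial plexin, named after its values were seen, overlapped between groups at 0.04.

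Transcripts known to follow VEGF stimulation of endothelium showed 4 of 18 higher and 3 lower without overlap, with a median log2 fold change of 0.04. Rcan1, a calcineurin inhibitor, stood at 33.4 and 30.6 CPM untreated and at 43.2 and 40.4 CPM under CCCP, a log2 fold change of 0.39 (edgeR adjusted p 0.278), and Adamts1, which is also on this list, is described above. The tip-cell genes Esm1, Apln and Dll4, named after their values were seen, overlapped between groups. Esm1 stood at 29.2 and 44.0 CPM untreated and at 35.1 and 47.3 CPM under CCCP, Apln at 20.9 and 42.5 against 24.2 and 47.6 CPM, and Dll4 at 41.2 and 64.0 against 48.8 and 52.3 CPM. All 3 were higher in replicate 2 of each group, the difference between replicates exceeding that between groups. The median of the list went to 0.27 once untreated replicate 2 was left out and to -0.09 once replicate 1 was, so no direction could be read from it.

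Of the 18 factors known to act on Vegfa transcription or its mRNA, 5 were higher and 7 lower without overlap, with a median log2 fold change of -0.07. Epas1, which encodes HIF-2 alpha and is expressed in endothelium, stood at 45.8 and 46.8 CPM untreated and at 36.6 and 24.0 CPM under CCCP. Its log2 fold change was -0.61 (SE 0.210, edgeR adjusted p 0.291), but -0.34 without CCCP replicate 2 and -0.95 without CCCP replicate 1. Egln2, a prolyl hydroxylase that marks HIF for breakdown, stood at 79.2 and 74.4 CPM untreated and at 101.9 and 101.1 CPM under CCCP, a log2 fold change of 0.40 (edgeR adjusted p 0.24) that was 0.23 with the GC trend removed. Hif1a itself, named after its values were seen, stood at 188.6 and 203.7 CPM untreated and at 160.0 and 189.2 CPM under CCCP, overlapping by a narrow margin. Atf4, the transcription factor of the integrated stress response, also named after its values were seen, was at 237.1 and 291.6 CPM untreated and at 327.4 and 326.1 CPM under CCCP, a log2 fold change of 0.31 (edgeR adjusted p 0.383).

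**Figure D4:**
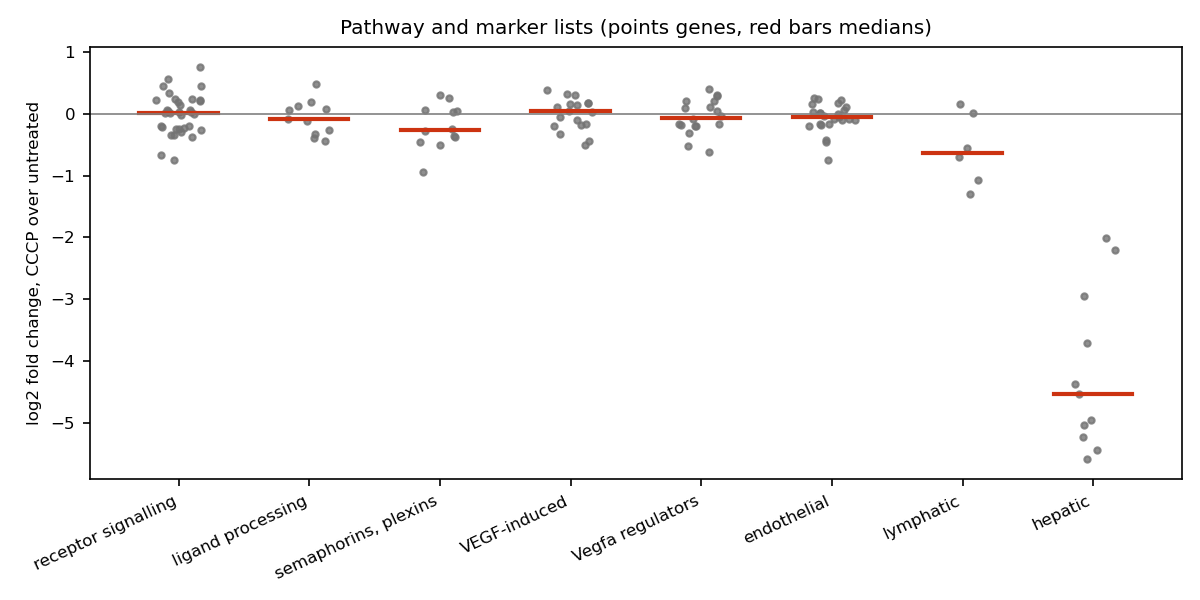
Log2 fold change of CCCP over untreated (vertical axis) for each gene of the pathway lists and of the endothelial, lymphatic and hepatic marker lists (points, spread sideways for legibility), with list medians in red. The pathway medians lie between -0.27 and 0.04 and the endothelial median at -0.05, while the hepatic median is -4.52.

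By pattern over the 4 libraries, the genes nearest to each of 3 members were found by the distance between log2 CPM values centred on their mean, among 14112 genes. Nearest to Vegfa were Zfp947, Nup210l and Zfp119b, at distances of 0.041 to 0.064. Nearest to Kdr were Topbp1, Sass6 and Clic6, at 0.029 to 0.038, and nearest to Flt1 were Thbd, Zfp958 and Zfp984, at 0.024 to 0.081. Thbd, the gene of thrombomodulin, stood at 8.69 and 9.84 CPM untreated and at 6.72 and 5.43 CPM under CCCP. Likeness of this kind over 4 libraries is a description only. Between members the closest pair was Flt4 and Nrp1, at 0.117.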

How the data were processed

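The values deposited by the authors are raw counts of reads per gene. Per the file headers they were made with featureCounts 2.0.3 on the mm10 RefSeq annotation, summing exons by gene, with no strand option and no option to count pairs as fragments, so reads were counted without regard to strand and each mate singly, and reads touching several genes were dropped. HISAT2, SAMtools, FastQC and Subread are named in the submitters' processing notes without versions. The merged exon length per gene comes from the same files deposited by the authors.

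From these counts edgeR 4.0.16 (R 4.3.3) was run with TMM scaling, filterByExpr (at least 10 reads, total of at least 15) and a 2-group design, two-sided, with Benjamini-Hochberg adjustment over all 19837 genes tested and a threshold of 0.05. An SE is the log2 fold change over the root of its F statistic. An exact permutation test of 2 against 2 libraries gives at best p = 0.333 and was not used. Reads are not independent molecules without molecular identifiers, and a count of 3, taken as the floor, is 0.0599 to 0.0827 CPM. Length and GC trends were taken per library by lowess (span 0.3), the GC content coming from GENCODE M21 transcripts (90.4% of genes tested, all 10 members). Alternatives were DESeq2 1.42.0, its size factors, no scaling, no filter, the replicate number as a block, the trends, and each library left out. The GC trend and the longest transcript length were chosen after seeing the data. Scripts were tested on simulated counts without a length, GC or replicate effect. That test does not show how well such effects are removed.

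The members and lists were chosen with earlier results of these data known. In each pathway list the gene with the smallest p in each direction is named when none passes (mean CPM at least 1). Other named genes are marked as chosen after their values were seen. Marker lists for podocytes and mesonephros, neural, erythroid and macrophage cells had median log2 fold changes of -0.002, 0.03, -0.02 and 0.15. The mesenchymal list, of which Tagln did not pass the filter, had a median of -0.07. Of the endothelial list, 1 of 25 symbols was not in the tables.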

Additional observations from a re-analysis of the deposited data

How the results depend on the processing

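The count of genes called by edgeR, 0, stayed at 0 with DESeq2 size factors, without library scaling and with the length or GC trend removed. It was 1107 without a filter on low counts and 594 in DESeq2, and between 1 and 34 when a library was left out. No label says what a replicate number marks. Same-numbered libraries deviated together (correlation 0.377 of the differences between replicates), but with 2 pairs the numbers were not taken as a pairing. With the replicate number as a block the count was 2118, 1242 after removing the length trend as well, and 926 after removing the GC trend as well. The cause was not tested. Of the 92 pathway genes tested, 8 were called without the filter, 3 in DESeq2, 12 with the replicate block and 6 when the block was joined with removal of either trend (length 6, GC 6), against 0 in the main setting. None was called in the fits that left out a library. Of the members, whose contrast chose them, the unfiltered fit called Vegfa and Flt1 (3.43% of all genes called), DESeq2 Vegfa (3.32%), and the replicate block Vegfa, Vegfb and Flt1 (10.7%). With the block and a trend removed, Vegfa was called for length (6.26%) and Vegfa and Flt1 for GC (4.67%).

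Members without overlap numbered 2 higher and 1 lower with the length trend removed, against 1 and 5, and ran from 1 to 3 higher and 5 to 8 lower when a library was left out. Over all genes those fits gave 34.0% to 41.3% higher and 34.1% to 39.6% lower. The signs of Vegfa, Vegfb, Kdr, Flt1 and Flt4 were the same in all 13 alternatives to their fold change. Vegfc (2), Vegfd (4), Pgf (1), Nrp1 (2) and Nrp2 (2) changed sign in some. With the longest transcript length 2 members kept their place in the untreated order of levels per length and 3 in the CCCP order. The share of Vegfa among the ligands was on that length 62.4% untreated and 42.7% under CCCP, against 57.3% and 37.7%, and it ran from 55.4% to 59.1% and from 36.2% to 39.2% with a library left out, when 6 to 10 members kept their place in either group. Without untreated replicate 2 the log2 fold changes of Pecam1 and Cdh5 were 0.032 and 0.026, reversed from -0.19 and -0.18, and with each library left out in turn they ran from -0.36 to 0.03 and from -0.34 to 0.03. Depth limits the low members most: the 222 reads of Vegfd alone carry a counting error of 6.71%.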
